A study of Homo sapiens with 6 samples.

Results

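The data described here are the 4 mature microRNAs that are cut from the hairpins MIR22 and MIR185, in K562 cells with and without added RUNX1. The members were chosen by name: the entries hsa-miR-22-3p, hsa-miR-22-5p, hsa-miR-185-5p and hsa-miR-185-3p of a count list with 28846 small RNAs, 2596 of them microRNAs. All 4 names were found in each of the 6 samples, and all 4 passed the filter on low counts. K562 is an established human erythroleukemia cell line. The control group was K562 transduced with the empty lentiviral vector SIEW, which expresses GFP only, and the RUNX1 group was K562 transduced with SIEW RUNX1, which expresses human RUNX1 together with GFP. Each group had 3 samples from independent transductions, and both groups carried a lentiviral GFP vector. Cells were kept in RPMI medium with fetal calf serum, RNA was taken after 10 days in culture, and libraries were made from 1000 ng of total RNA. The comparison asks how RUNX1, a transcription factor of the megakaryocytic lineage, changes the level of these microRNAs in a cell line that lies between the erythroid and the megakaryocytic lineage. A single cell line with vector-driven RUNX1 limits both groups as a model of primary progenitors.

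A microRNA gene is transcribed into a longer RNA, from which a hairpin is cut. Dicer then cuts the hairpin into a duplex of a 5p and a 3p arm, of which usually one arm, the guide, stays bound to an Argonaute protein while the other is degraded. The guide pairs with target messenger RNAs mainly through its seed, the bases 2 to 8. miR-22 and miR-185 have both been described as microRNAs that become more abundant while red cell precursors mature and make haemoglobin. miR-22 is also known as a repressor of TET2, an enzyme that oxidises methylated cytosines.

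The mature sequences are shown because the arms of one hairpin carry different seeds and are counted as separate small RNAs. They were taken from the RefSeq table of GRCh38.p14, and capitals mark the seed, bases 2 to 8 from the 5′ end.
hsa-miR-22-3p: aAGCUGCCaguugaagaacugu
hsa-miR-22-5p: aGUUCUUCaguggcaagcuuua
hsa-miR-185-5p: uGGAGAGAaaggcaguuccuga
hsa-miR-185-3p: aGGGGCUGgcuuuccucugguc
Each of the 4 RNAs is 22 nt long, and counts were not corrected for length. No seed was shared among the 4. Among all human microRNAs of the table, 1 other carries a seed of theirs, hsa-miR-4306, which shares its first 16 bases with hsa-miR-185-5p.
hsa-miR-4306: uGGAGAGAaaggcagua
It is 17 nt long and was listed with 0 counts in all 6 samples, which is below the floor of 3 counts per sample used here. The other 3 members shared a run of at most 10 bases with any other microRNA of the table. Of 2576 entries named as human microRNAs, 2262 had a sequence in the table, and each member had 1 locus there.

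The hairpins are shown from the GENCODE 29 transcripts to place both arms, which are in capitals (5p first).
MIR22: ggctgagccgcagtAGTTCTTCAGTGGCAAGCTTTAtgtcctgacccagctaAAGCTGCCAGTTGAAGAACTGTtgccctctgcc
MIR185: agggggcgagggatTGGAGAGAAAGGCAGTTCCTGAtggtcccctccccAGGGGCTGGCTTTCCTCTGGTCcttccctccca
MIR22 lies on the minus strand at chr17:1713903-1713987 of GRCh38. It is inside an exon of the long non-coding RNA gene MIR22HG (1711493 to 1717174, minus strand) in 19 of its 19 annotated transcripts. The arms lie at 1713952 to 1713973 (5p) and 1713914 to 1713935 (3p). MIR185 lies on the plus strand at chr22:20033139-20033220, within the protein-coding gene TANGO2 (20017014 to 20065926, plus strand). It is spanned by 19 of 26 TANGO2 transcripts and overlaps an exon of 0 of them, so it is intronic. Its arms lie at 20033153 to 20033174 (5p) and 20033188 to 20033209 (3p). RNAfold gave minimum free energies of -39.8 kcal/mol for the 85 nt of MIR22 and -51.7 kcal/mol for the 82 nt of MIR185, with 42 and 40 of the 44 arm bases paired.

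Total counts ranged from 1618248 to 6193319 in control and from 7918551 to 15245007 with RUNX1, so RUNX1 values rest on more reads. MicroRNAs took 81.4% to 82.1% of the counts in control and 89.5% to 91.9% with RUNX1. One microRNA, miR-10a-5p, took 5.81% to 7.02% in control and 24.5% to 29.3% with RUNX1. TMM, the scaling used for the main test, sets libraries on one level as if most small RNAs kept their level. Its factors had a mean of 1.28 in control and 0.786 with RUNX1, a log2 difference of 0.70. The RUNX1 messenger RNA is not measured in small RNA counts, so the targeted gene could not be checked in these data. The paper shows RUNX1 over-expression in K562 cells by Western blot. Summed marker levels differed between the groups too, for the erythroid lineage of K562 itself and for most of the other cell types looked at. The 4 erythroid markers (miR-451a, both arms of miR-144, miR-486-5p) summed to 5800 to 6230 CPM of unscaled totals in control and to 1764 to 3199 with RUNX1. After TMM 3 of these 4 were called lower and 1, miR-144-3p, was called higher (log2 fold change 1.02 ± 0.14, SE, and 0.32 with library size alone, where it was not called). Over all 947 small RNAs tested, 265 were called higher and 280 lower, and over the 598 microRNAs 200 and 135. By q-RT-PCR the paper found mature miR-144 lower with RUNX1, and it names miR-144 as the exception to the shared direction with sequencing. The 5 lymphoid and myeloid markers summed to 17550 to 20077 in control and 32128 to 39709 with RUNX1. This rise was uneven. With library size alone the log2 fold change was 1.43 for miR-142-3p and 0.97 for miR-142-5p, both called. It was 0.26 for miR-155-5p and 0.19 for miR-223-3p, neither called. Of the 6 mesenchymal and muscle markers, 5 were listed, with 92.4 to 95.2 in control and 1588 to 1690 with RUNX1, and miR-206 was at 0 in every sample. Their change was uneven: with library size alone the log2 fold change was 6.03 for miR-143-3p and 5.66 for miR-1, but 0.11 for miR-145-5p. The 4 epithelial markers summed to 47.6 to 55.4 and 109 to 132. With library size alone miR-205-5p was at 5.52, but miR-141-3p at 0.48 and miR-200c-3p at 0.26. The liver marker miR-122-5p, too rare to be tested, lay at 0.163 to 1.29 and 0.235 to 0.853, which overlap. The part of these markers in the members' values was not tested. In bulk samples, a change in the kinds of cells and a change in RNA per cell cannot be told apart.

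After TMM scaling, all 4 arms passed the test as higher with RUNX1 and by about the same amount, beside 28% of the 947 small RNAs tested. With scaling by library size alone, 0 of the 4 passed, beside 12.7% of the 947 that were higher. The guide arm of MIR22, hsa-miR-22-3p, was among the most abundant microRNAs of the cells, ranked 6 of 598 tested microRNAs in control and 5 with RUNX1 by mean level. Its counts were 85424, 309349 and 294066 for the control samples (replicates 1, 2 and 3, the order kept throughout) and 729370, 419269 and 409912 for the RUNX1 samples. Scaled by TMM, these were 40853, 38390 and 38724 CPM (counts relative to the scaled library size) in control and 63272, 67078 and 59829 CPM with RUNX1. The groups did not overlap. The means were 39322 ± 1336 and 63393 ± 3626 CPM (SD, n = 3 each). With edgeR's quasi-likelihood test the log2 fold change was 0.69 ± 0.11 (SE, 95% interval 0.44 to 0.93, adjusted p = 0.000545), which passed the call (P under 0.05 and a change of 0.5 or more on the log2 scale, up or down). Its standard error was the second smallest of the 598 microRNAs tested (rank 2).

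As a share of the library, hsa-miR-22-3p had nearly the same level in both groups. It held 5.28%, 5.03% and 4.75% of all counts in the control samples and 4.78%, 4.93% and 5.18% in the RUNX1 samples. These ranges overlap, and the means of 5.02% ± 0.265 and 4.96% ± 0.198 (SD, n = 3 each) gave p = 0.8 in an exact two-sided permutation test, whose smallest possible p with 3 samples against 3 is 0.1. With library size alone as the scaling, edgeR's quasi-likelihood test gave a log2 fold change of -0.016 (95% interval -0.23 to 0.20, adjusted p = 0.886). As a share of microRNA counts only, the means were 6.13% ± 0.326 in control and 5.46% ± 0.294 with RUNX1 (SD, n = 3 each, exact permutation test p = 0.1, adjusted over 8 share comparisons p = 0.267). Here the control samples lay above the RUNX1 samples, the opposite order to the TMM values, although control replicate 3 and RUNX1 replicate 3 were nearly equal. The same scale put the other 3 arms lower with RUNX1 too, by log2 ratios of -0.15 to -0.18, and the groups overlapped for hsa-miR-185-3p. The exact permutation test gave p = 0.1 (adjusted 0.267) for hsa-miR-22-5p and hsa-miR-185-5p and 0.3 (adjusted 0.6) for hsa-miR-185-3p. For the shares of all counts, here and below, the p adjusted over the 8 comparisons was 1 for each of the 4 arms in the exact permutation test.

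**Figure D1:**
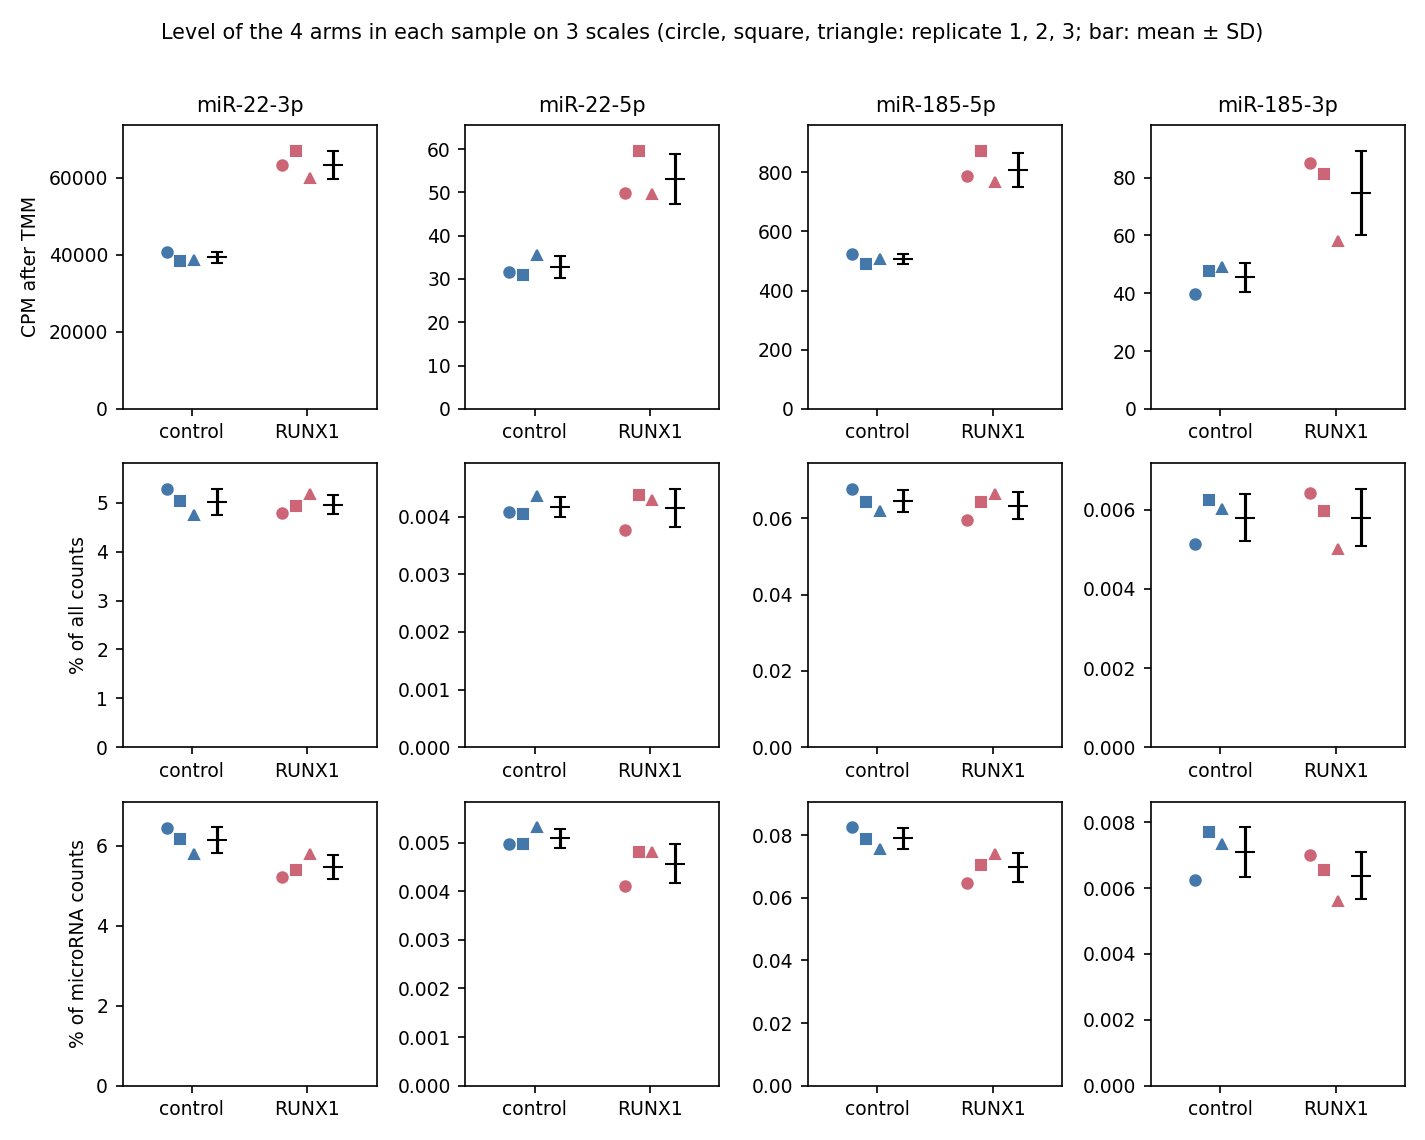
Level of each arm (columns) in each sample, as CPM after TMM scaling (top row), percent of all counts (middle) and percent of microRNA counts (bottom), with vertical axes starting at 0. Circles, squares and triangles are replicates 1, 2 and 3, and bars give the mean ± SD of 3 samples. On the TMM scale the RUNX1 samples lie above the control samples for all 4 arms, on the scale of all counts the groups overlap for all 4, and on the scale of microRNA counts the RUNX1 means are lower.

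The passenger arm hsa-miR-22-5p was rare, with 66, 249 and 270 counts in control and 575, 373 and 340 with RUNX1. It ranked 218 of 598 in control and 202 with RUNX1. On the TMM scale it had 31.6, 30.9 and 35.6 CPM in control and 49.9, 59.7 and 49.6 CPM with RUNX1, again with no overlap. The log2 fold change after TMM was 0.69 ± 0.14 (SE, 95% interval 0.37 to 1.02, edgeR adjusted p = 0.00275), and with library size alone it was -0.0081 (95% interval -0.31 to 0.30, edgeR adjusted p = 0.958). Its share of all counts was 0.00416% ± 0.000172 in control and 0.00415% ± 0.000331 with RUNX1 (SD, n = 3 each, exact permutation test p = 1).

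From MIR185, the guide arm hsa-miR-185-5p was counted 1095, 3949 and 3837 times in control and 9070, 5461 and 5248 times with RUNX1. It ranked 69 of 598 in control and 70 with RUNX1. TMM-scaled levels were 524, 490 and 505 CPM in control and 787, 874 and 766 CPM with RUNX1. The RUNX1 samples all lay above the control samples on this scale. The log2 fold change was 0.68 ± 0.12 after TMM (SE, 95% interval 0.41 to 0.95, edgeR adjusted p = 0.00110) and -0.028 with library size alone (95% interval -0.30 to 0.24, edgeR adjusted p = 0.833). Shares of all counts were 0.0646% ± 0.00288 and 0.0633% ± 0.00347 (SD, n = 3 each, exact permutation test p = 0.7), and they overlapped.

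The other arm of this hairpin, hsa-miR-185-3p, was the most variable of the 4. Its counts were 83, 385 and 373 in control and 980, 508 and 397 with RUNX1, and it ranked 192 and 174 of 598. After TMM it had 39.7, 47.8 and 49.1 CPM in control and 85.0, 81.3 and 57.9 CPM with RUNX1. The groups did not overlap on this scale, but RUNX1 replicate 3 lay closer to the control samples than to the other RUNX1 samples. The log2 fold change was 0.70 ± 0.18 after TMM (SE, 95% interval 0.30 to 1.11, edgeR adjusted p = 0.00761) and -0.0086 with library size alone (95% interval -0.36 to 0.34, edgeR adjusted p = 0.960). Its share of all counts was 0.00580% in both groups (SD 0.000595 in control and 0.000722 with RUNX1, n = 3 each, exact permutation test p = 1).

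Of all 947 small RNAs tested, 57.6% were called after TMM, 28% as higher with RUNX1, and of the 598 microRNAs 33.4% were called higher. Being called higher was thus common among microRNAs in this comparison, and the members' 4 calls of 4 are read against that background. How many of the 947 had groups without overlap after TMM was not counted. The lack of overlap for the 4 arms is therefore not read as particular to them. With library size alone, 67.7% of the 947 were called and 12.7% were called higher, and 0 of the 4 members were called. The 4 members lay within 0.028 of each other on the log2 scale after TMM and within 0.020 with library size alone. The median log2 fold change of all 947 was -0.064 after TMM and -0.76 with library size alone. Relative to that median, the members lay 0.74 to 0.77 higher after TMM and 0.73 to 0.75 higher with library size alone. Their place among the microRNAs, ordered from the largest rise, was 176 to 182 of 598 under both scalings. A change of scaling shifts all log2 fold changes by nearly the same amount, so that these places and distances had to stay close, and they are no separate evidence. The members went from called higher after TMM to no detectable difference with library size alone.

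**Figure D2:**
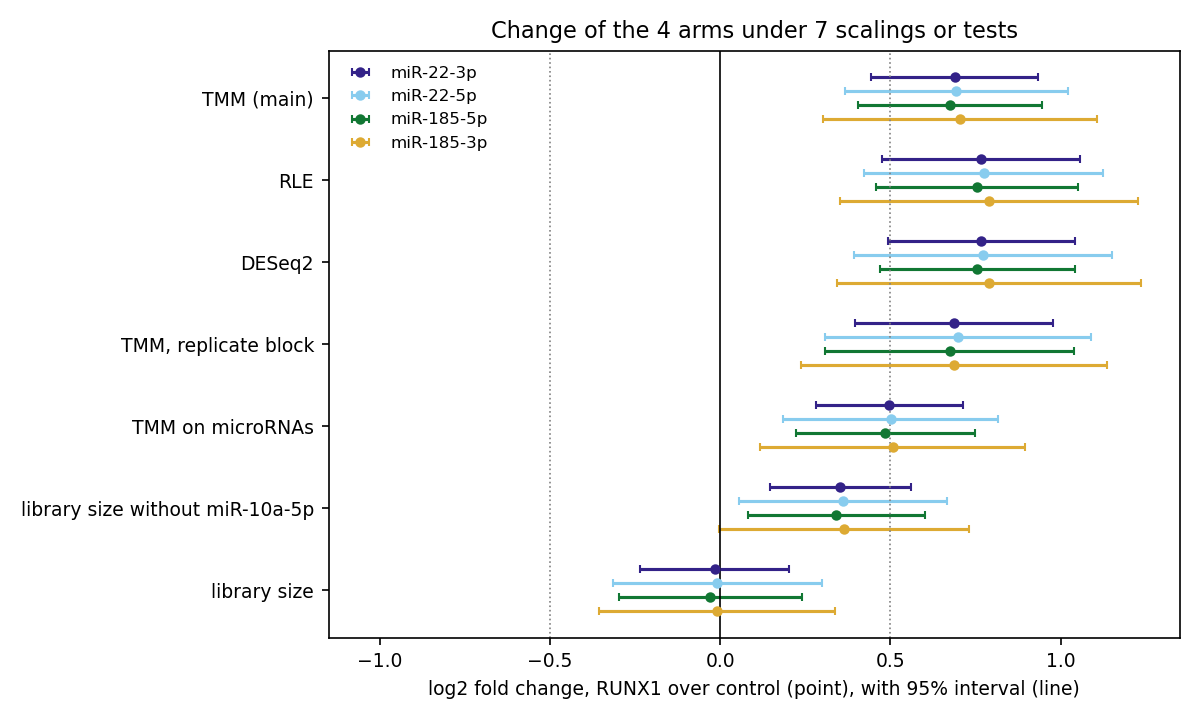
Log2 fold change of each arm, RUNX1 over control (horizontal axis, points), with 95% intervals (lines), under 7 scalings or tests. Dotted lines mark the call limit of 0.5 in size. The points lie between 0.67 and 0.79 for TMM, RLE, DESeq2 and TMM with the replicate block, between 0.48 and 0.51 for TMM on microRNAs, between 0.34 and 0.36 for library size without miR-10a-5p, and between -0.028 and -0.0081 for library size.

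**Figure D3:**
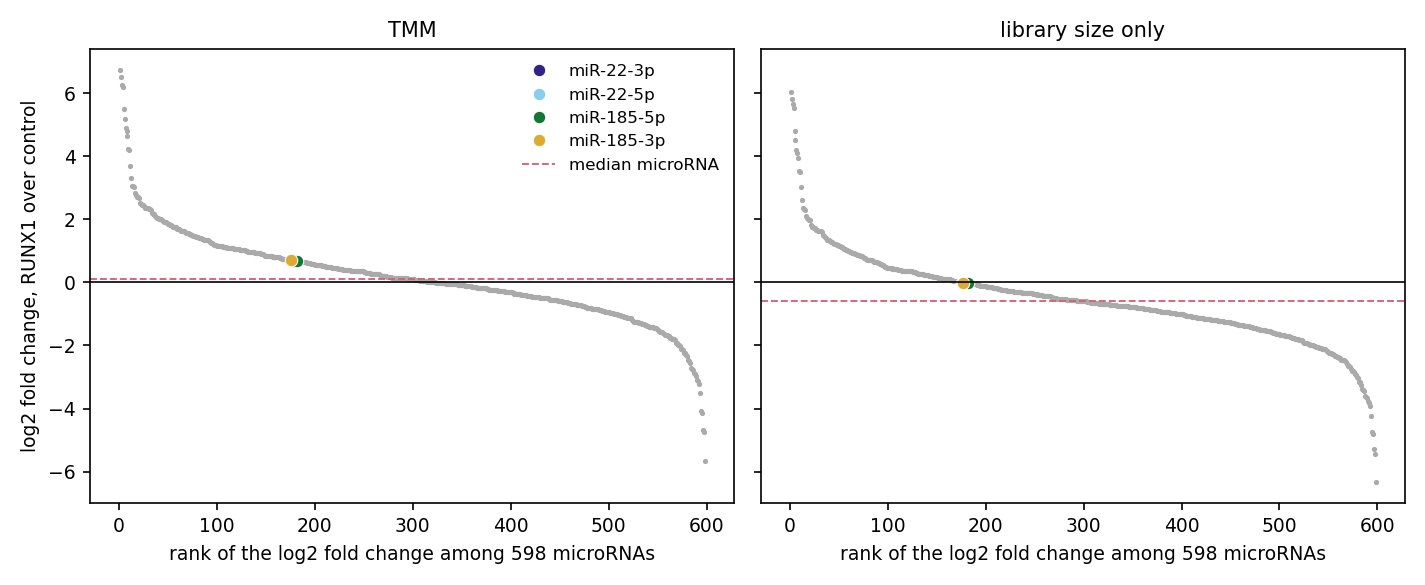
Log2 fold change, RUNX1 over control (vertical axis), of the 598 tested microRNAs (grey points) ordered by rank from the largest rise, after TMM (left) and with library size only (right). The dashed line is the median microRNA (0.11 left, -0.59 right). The 4 arms are coloured and overlie each other at ranks 176 to 182 in both panels, at 0.68 to 0.70 after TMM and near 0 with library size only.

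The ratio of the arms of 1 hairpin is taken inside each library and needs no scaling between libraries. For MIR22 the 3p arm had 1294, 1242 and 1089 counts per count of the 5p arm in control and 1268, 1124 and 1206 with RUNX1. Groups overlapped on this measure. The mean log2 ratio of 3p to 5p was 10.23 ± 0.13 in control and 10.22 ± 0.088 with RUNX1 (SD, n = 3 each), a difference of -0.0052 (limma, 95% interval -0.35 to 0.34, adjusted p = 0.976, exact permutation test p = 1). Among the 144 hairpins with both arms tested, MIR22 had the highest ratio of 3p to 5p (rank 1) and the smallest difference between conditions in size (rank 1). A rank from values this close to 0 rests on differences far below their standard error of 0.16.

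The arms of MIR185 stood the other way round, with the 5p arm more abundant. There were 13.2, 10.3 and 10.3 counts of hsa-miR-185-5p per count of hsa-miR-185-3p in control and 9.26, 10.8 and 13.2 with RUNX1. Control replicate 1 and RUNX1 replicate 3 thus had the highest ratios, 1 in each group. The log2 ratio of 3p to 5p was -3.48 ± 0.20 in control and -3.45 ± 0.26 with RUNX1 (SD, n = 3 each), a difference of 0.025 (limma, 95% interval -0.39 to 0.44, adjusted p = 0.936, exact permutation test p = 1). It ranked 7 of 144 from the smallest difference. In 47.2% of the 144 hairpins the arm ratio was called as different, 30 towards 3p and 38 towards 5p with RUNX1, and the median difference in size was 0.61. Neither MIR22 nor MIR185 was among those called, and their intervals leave room for a difference of up to 0.35 and 0.44 on the log2 scale.

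The minor arm made up 0.0772%, 0.0804% and 0.0917% of the counts of MIR22 in control and 0.0788%, 0.0889% and 0.0829% with RUNX1. The 95% Wilson interval of the shallowest library, control replicate 1, was 0.0607% to 0.0982% and held all 6 values. For MIR185 the minor arm, 3p, made up 7.05%, 8.88% and 8.86% in control and 9.75%, 8.51% and 7.03% with RUNX1. Here RUNX1 replicates 1 and 3 had Wilson intervals of 9.19% to 10.3% and 6.39% to 7.73%, which do not overlap. Such intervals cover counting error only. PCR copies of one molecule were counted as separate reads, so the intervals can be too narrow even for that. Whether these samples differed by more than counting error is therefore not settled.

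Between the hairpins, the guide arms kept a narrow ratio. There were 78.0, 78.3 and 76.6 counts of hsa-miR-22-3p per count of hsa-miR-185-5p in control and 80.4, 76.8 and 78.1 with RUNX1. The groups overlapped, and the difference of the log2 ratio was 0.014 (6.28 ± 0.017 in control and 6.29 ± 0.034 with RUNX1, SD, n = 3 each, exact permutation test p = 0.6). By level the order was hsa-miR-22-3p, hsa-miR-185-5p, hsa-miR-185-3p and hsa-miR-22-5p in both groups. The last 2 were close: the TMM-scaled CPM of hsa-miR-185-3p and hsa-miR-22-5p did not overlap in control (39.7 to 49.1 against 30.9 to 35.6) and overlapped with RUNX1 (57.9 to 85.0 against 49.6 to 59.7). Counts of different sequences also carry the efficiency with which each is ligated and copied, which was not measured.

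Over the 6 samples, hsa-miR-22-3p and hsa-miR-185-5p had a Pearson correlation of TMM-scaled log2 CPM of 0.998. The 3 microRNAs most like hsa-miR-22-3p were miR-30d-5p (0.999), miR-142-5p (0.999) and miR-301b (0.998). For hsa-miR-185-5p they were miR-30b-5p (0.998), miR-30d-5p (0.998) and miR-142-5p (0.996). These coefficients describe 6 points in 2 groups that share library scaling, and microRNAs with other sizes of change reach them too. The log2 fold change after TMM was 0.80 for miR-30d-5p, 1.30 for miR-30b-5p, 1.36 for miR-301b and 1.69 for miR-142-5p, against 0.69 for hsa-miR-22-3p. With library size alone miR-30d-5p was at 0.098 and miR-142-5p at 0.97. The other arms were less alike to hsa-miR-22-3p, at 0.969 for hsa-miR-22-5p and 0.887 for hsa-miR-185-3p.

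No other microRNA of the RefSeq table lay within 100 kb of MIR22. Around MIR185 there were 7 entries, of which 4 were tested. The nearest of these, miR-1306-5p, lies 52.9 kb away and had 91, 407 and 392 counts in control and 947, 457 and 551 with RUNX1. Its log2 fold change was 0.69 ± 0.13 after TMM (SE, edgeR adjusted p = 0.00195, called) and -0.010 with library size alone, close to the MIR185 arms on both scales. The other arm of that hairpin, miR-1306-3p, was at 0.37 ± 0.20 (SE, edgeR adjusted p = 0.139) after TMM, short of the call. Farther away, at 69.3 kb, miR-4761-3p was at 1.06 ± 0.21 after TMM (SE, edgeR adjusted p = 0.00198, called) and 0.35 with library size alone (not called), and miR-4761-5p was at 0.19 ± 0.45 after TMM (SE, edgeR adjusted p = 0.738). The other 3 entries had at most 7 counts in a sample.

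For context, 2 lists of microRNAs linked to the red cell and to the platelet lineage were counted in the same fit. Of 18 red cell microRNAs, 15 were tested. After TMM 9 were called higher and 4 lower with RUNX1, with a median log2 fold change of 0.95. Beside them, 33.4% of all tested microRNAs and 28% of all tested small RNAs were called higher. Called lower after TMM were 280 of the 947 tested small RNAs. With library size alone 4 were called higher and 5 lower, with a median of 0.26. Beside them, 12.7% of the 947 tested small RNAs were called higher and 521 of the 947 lower. The largest rise was that of miR-363-3p (log2 fold change 5.50 ± 0.31 after TMM, SE) and the largest fall that of miR-96-5p (-0.97 ± 0.17). miR-451a, a microRNA of red cells, fell (-0.84 ± 0.15 after TMM, -1.53 ± 0.18 with library size alone). After TMM miR-144-5p (-0.58) and miR-486-5p (-0.80) fell too, while miR-144-3p rose (1.02). The list pools opposite roles, so its counts give no direction for red cell development. The paper describes miR-221 and miR-222 as negative for erythropoiesis and lower miR-223 as enhancing it. After TMM miR-221-3p (4.22), miR-222-3p (2.52) and miR-223-3p (0.91) were called higher, the last not with library size alone (0.19). The 4 arms lay between miR-363-3p and miR-451a under both scalings, but this range is wide, with the list's largest rise at one end, and says little about them.

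Of 13 platelet and megakaryocyte microRNAs, 9 were tested. After TMM 8 were called higher and 1 lower, with a median of 1.94. Beside them stand the same 33.4% of microRNAs and 28% of small RNAs called higher, and 280 of 947 small RNAs called lower. With library size alone 5 were called higher and 1 lower, with a median of 1.23, beside 12.7% of small RNAs called higher and 521 of 947 lower. miR-146a-5p rose most (4.20 ± 0.17 after TMM, SE), miR-126-3p fell (-1.32 ± 0.39), and miR-10a-5p was at 2.83 ± 0.17. This list was drawn up by link to the lineage and not by direction of role. Its counts therefore give no direction for megakaryocyte development. The members of both lists have medians above the 0.11 of all tested microRNAs after TMM, as do the 4 arms, whose median was 0.69. miR-155-5p and miR-223-3p stand in both lists. Some listed microRNAs that have 2 loci in the RefSeq table were nearly uncounted (miR-16-5p with 305 counts over all samples, miR-24-3p with 20), and how reads with several matches were handled is not given in the sources used here. Each of the 4 arms has 1 locus.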

How the data were processed

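Small RNA of 6 K562 samples (3 control, 3 RUNX1) was prepared with the TruSeq Small RNA kit. The authors counted reads per annotated small RNA, and the deposited values are raw counts without normalization. The submitters' processing notes name CASAVA 1.8.2 and hg19, the study names the OASIS platform with standard parameters for its small RNA comparison, and the aligner is not given in the sources used here. The 5 closing lines of each file name no RNA and hold 0 counts. Coordinates of the arms are from RefSeq (GRCh38.p14) and GENCODE 29, not from the files. Groups and replicate numbers came from the labels. The library names carry different letters in the 2 groups, and should these stand for separate preparations, a preparation effect and a RUNX1 effect cannot be told apart.

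Counts were filtered (filterByExpr, minimum count 10, minimum total 15), scaled by TMM and tested with edgeR 4.0.16 (glmQLFit, glmQLFTest) in R 4.3.3 over all 947 entries that passed, with Benjamini-Hochberg adjustment. The call followed the study's methods: P under 0.05 with a change of 0.5 or more, up or down, on the log2 scale. Log2 arm ratios (pseudocount 0.5) were tested with limma 3.58.1 with trend. Hairpins were folded with RNAfold 2.7.2. Shares and the ratio of the guide arms were compared by exact two-sided permutation tests (scipy 1.17.1). Fits were tested on simulated data. These were drawn with the TMM-scaled library sizes, so they could not test the choice of scaling. Alternatives were RLE factors, library size only, TMM on microRNAs, library size without miR-10a-5p, no filter, 10 counts in every sample, DESeq2 1.42.0, a replicate block, the adjusted P as the call rule and each replicate left out, and for arm ratios also other pseudocounts and limma without trend. The shares of counts were added after seeing the data. Named microRNAs were the 4 members, those sharing a seed, those within 100 kb of a member hairpin, the 3 most correlated with each guide arm, the largest rise and fall of each list, and miR-10a-5p. The cell type markers and the microRNAs of both lists were listed by name in the design. Some of these were singled out after their values were seen. From the lists these were miR-451a, miR-144-3p, miR-144-5p, miR-486-5p, miR-155-5p, miR-221-3p, miR-222-3p, miR-223-3p and those with 2 loci. From the other markers they were miR-142-3p, miR-142-5p, miR-206, miR-1, miR-143-3p, miR-145-5p, miR-205-5p, miR-141-3p and miR-200c-3p. The members and lists were chosen with earlier results of these data known.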

Additional observations from a re-analysis of the deposited data

How the results depend on the processing

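The 4 arms remained called as higher in RUNX1 samples with RLE factors, DESeq2, no filter, the adjusted P as the call rule, a minimum of 10 counts per sample and each replicate left out. Leaving out 1 replicate gave log2 fold changes of 0.67 to 0.81 for hsa-miR-22-3p, 0.64 to 0.82 for hsa-miR-22-5p, 0.65 to 0.80 for hsa-miR-185-5p and 0.63 to 0.93 for hsa-miR-185-3p. Other scalings ended the call. TMM factors from microRNA entries gave 0.497 for hsa-miR-22-3p and 0.484 for hsa-miR-185-5p, just under the limit of 0.5, and kept the call of the other two arms. Library size without miR-10a-5p gave 0.35, 0.36, 0.34 and 0.36 for hsa-miR-22-3p, hsa-miR-22-5p, hsa-miR-185-5p and hsa-miR-185-3p, in this order here and below. Library size alone gave -0.016, -0.0081, -0.028 and -0.0086, with 120 small RNAs called higher and 521 lower in place of 265 and 280. Percent of all counts gave log2 ratios of -0.016, -0.0040, -0.029 and 0.00040, and percent of microRNA counts -0.17, -0.15, -0.18 and -0.15. These shifts follow from the construction of the scalings, whose TMM factors differ by 0.70 on the log2 scale between groups, and which of them stands closer to the amount of RNA per cell was not tested. The arm ratio differences lay between -0.077 and 0.043 for MIR22 and between -0.097 and 0.16 for MIR185 with 1 replicate left out, so their sign is not determined, and neither was called in any alternative run. The log2 ratio of the guide arms differed by -0.0039 to 0.030, negative without RUNX1 replicate 1. Replicate numbers did not pair the samples (correlations of deviations -0.033, -0.090 and 0.018 for numbers 1, 2 and 3), and with the replicate block the members were at 0.69, 0.70, 0.67 and 0.69, all called, with 259 small RNAs higher and 287 lower. The precision of the minor arms is limited by depth, with 66 and 83 counts in control replicate 1.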
